A study of Homo sapiens with 14 samples.

Results

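Small nucleolar RNA (snoRNA) host genes are genes whose introns carry snoRNAs, and those taken here are the non-coding ones, GAS5, SNHG1, SNHG3, SNHG5, SNHG7, SNHG8, SNHG12, ZFAS1 and EPB41L4A-AS1. They were chosen by gene symbol: a host gene was read from a transcript cluster that the array annotation names for it alone, taking the brightest where there were several, and never from a cluster named for a nested snoRNA. By this rule 2 of the 9 genes could be read, ZFAS1 and EPB41L4A-AS1, among 18377 genes measured in all. Each had 1 cluster of its own, and both were bright enough to be among the 11026 genes tested. GAS5 was listed on 3 clusters, SNHG1 on 6, SNHG3 on 2 and SNHG12 on 4, all of which also name another gene, so these 4 genes were not used. SNHG5, SNHG7 and SNHG8 were not in the annotation used here. The results are therefore about ZFAS1 and EPB41L4A-AS1, and the values say nothing of the other 7.

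The cells were MiaPaCa2, a human pancreatic cancer cell line, and total RNA from them was hybridized to 14 whole-transcript arrays. One set of 6 arrays compared cells transfected with siRelA, siRelB or siCtrl, each kept for 9 h in EBSS or in mock, the control condition, which the labels do not describe further. The other set of 8 arrays followed cells transfected with siNupr1 or siCtrl over time in EBSS, at 0, 3, 6 and 9 h. EBSS is a balanced salt solution without amino acids or serum, so that cells kept in it are starved. RELA and RELB are transcription factor subunits of NF-kB, NUPR1 is a stress-induced chromatin protein, and siCtrl is the control siRNA. All groups are transfected cultures of 1 cell line, and each combination of siRNA and condition was measured on 1 array. The sets are called the NF-kB set and the Nupr1 set.

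Some labels limited these groups. On the 9 h siNupr1 array, title and source field disagree on the siRNA; the source field was followed, and values are also given without this array. The 0 h arrays were used as unstarved, although their source field names EBSS for 0 h while their titles name DMEM. The siRNAs lowered their targets, each past the limma test: NUPR1 differed by -0.87 on the log2 scale between siNupr1 and siCtrl, RELA by -2.49 between siRelA and siCtrl, and RELB by -1.32 between siRelB and siCtrl. RELB was also lower with siNupr1 than with siCtrl (-0.67, limma adjusted p = 0.000945). NUPR1 was also lower with siRelB than with siCtrl (-0.43, limma adjusted p = 0.0442). RELA passed with neither siNupr1 nor siRelB, and siRelA moved neither NUPR1 nor RELB past the test. The epithelial keratins KRT8, KRT18 and KRT19 were high on all arrays (9.54 to 13.3), while the epithelial adhesion molecule EPCAM was dim (3.27 to 3.89) and the leukocyte marker PTPRC was at 2.41 to 2.80. The collagens COL1A1 (6.53 to 7.27) and COL3A1 (5.82 to 6.50) and the acinar gene CELA3A (6.05 to 6.84) passed the filter on dim genes, and none of the 3 passed the test for any siRNA, medium or time. The other markers reported here of fibroblasts, leukocytes, endothelium and acinar cells were too dim to be tested, or had no cluster of their own.

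In a host gene, the snoRNA is cut from a spliced-out intron and joins a ribonucleoprotein that modifies ribosomal RNA. C/D snoRNAs (SNORD genes) guide methylation of the ribose, and H/ACA snoRNAs (SNORA genes) guide the change of uridine to pseudouridine. The spliced exons of the non-coding hosts are left over from this, and those of several hosts are bound by ribosomes and destroyed by nonsense-mediated decay, which is coupled to translation. Many hosts begin with a C followed by a run of pyrimidines, the start of the TOP mRNAs of ribosomal proteins, whose translation depends on the nutrient-sensing kinase complex mTORC1. GAS5, named as a growth arrest-specific transcript, is the best known host that accumulates when growth stops.

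ZFAS1, named as an antisense RNA of ZNFX1, holds 3 snoRNA genes in the RefSeq gene table, the C/D genes SNORD12, SNORD12B and SNORD12C. EPB41L4A-AS1, named as an antisense RNA of EPB41L4A, holds 1, the H/ACA gene SNORA13. A TOP-type start is here a C followed by at least 4 C or T within the first 10 transcribed bases. The starts of the genes are shown because ZFAS1 and EPB41L4A-AS1 differ in this feature at the starts used. Each sequence runs from 20 bases before the RefSeq start to 10 bases after it (RefSeq, GRCh38.p14), and capitals mark the pyrimidine run.
ZFAS1: ggttcaggaagccattcgttCTTTCgcgtc
EPB41L4A-AS1: tcagctggactcatgaattctgtcgggtcc
SNHG5: tactggctgcgcacttcggtCTTTTacgtc
SNHG12: cttgctcgcggcttcagcgcCCTTTCTCCC
These lie at chr20:49278622-49278651 on the plus strand for ZFAS1, chr5:112160506-112160535 on the plus strand for EPB41L4A-AS1, chr6:85678724-85678753 on the minus strand for SNHG5 and chr1:28581864-28581893 on the minus strand for SNHG12. From these starts ZFAS1 begins with a run of 5 pyrimidines at the first transcribed base, as does SNHG5. The run of SNHG12 fills all 10 transcribed bases of the window, so its full length was not measured. The RefSeq gene span of ZFAS1 begins upstream of its window, at chr20:49278178. Its TOP-type start therefore holds for the start used here, and the first base of the span was not examined. EPB41L4A-AS1 and the other 5 genes had no such run within the first 10 bases from their RefSeq start, against 13.9% of 35114 promoters with one, and 4.07% with one at the first base. A run that begins before the RefSeq start, as in SNHG7 and SNHG8, was not counted. In the 300 bases from 250 before to 50 after the start, read on both strands, neither ZFAS1 nor EPB41L4A-AS1 held CACGTG, which 7.26% of promoters held (SNHG7 was the one host of the 9 that did). The motif TGATGNAAN, held by 3.61% of promoters, was in none of the 9. A missing match says only that these letters are not in the window.

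Starvation for 9 h, set against mock, was measured with all 3 siRNAs of the NF-kB set, and both host RNAs were higher in EBSS. EPB41L4A-AS1 was about 2.01-fold higher, which placed it 25th from the top among 11026 genes, and ZFAS1 was 1.39-fold higher and placed 505th. The values that follow are log2 levels as deposited. In EBSS, EPB41L4A-AS1 was at 8.95 with siRelA, 9.39 with siRelB and 9.44 with siCtrl, and in mock it was at 7.84 with siRelA, 8.51 with siRelB and 8.40 with siCtrl. The lowest EBSS array was above the highest mock array, and siRelA gave the lowest value in both media. ZFAS1 was at 9.51 with siRelA, 9.50 with siRelB and 9.73 with siCtrl in EBSS, and in mock at 8.91 with siRelA, 9.15 with siRelB and 9.23 with siCtrl. Here too the EBSS and mock arrays did not overlap, and the siCtrl array was the highest in each medium. How many of all tested genes separate in this way was not counted. With 51.9% of them passing the limma test in this comparison, such separation may be common.

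The difference between EBSS and mock was 1.01 ± 0.11 (SE) for EPB41L4A-AS1 and 0.48 ± 0.11 (SE) for ZFAS1 on the log2 scale, over 3 pairs of arrays. The limma model over both sets, adjusted over all tested genes, gave an adjusted p of 2.76e-07 for EPB41L4A-AS1 and an adjusted p of 0.00172 for ZFAS1. A starvation effect was common on these arrays: 51.9% of the tested genes passed the same test, with 22.6% of tested genes higher and 29.3% lower in EBSS, and the median gene differed by 0.05. The 3 pairs of EPB41L4A-AS1 gave 1.11 with siRelA, 0.87 with siRelB and 1.04 with siCtrl. The pairs of ZFAS1 gave 0.59, 0.35 and 0.50 for the same siRNAs. All 6 differences were positive, and the one with siRelB was the smallest for each gene. In bulk RNA scaled between arrays, a higher share of the host RNA and a lower content of other RNA per cell cannot be told apart. The 3 tested keratins also passed as higher in EBSS than in mock, with a median of 0.33, and the part of this in the result was not tested. With a trend on the genomic span of genes removed from each array, the differences were 0.80 for EPB41L4A-AS1 (adjusted p = 1.70e-05, limma) and 0.38 for ZFAS1 (adjusted p = 0.0104, limma).

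**Figure D1:**
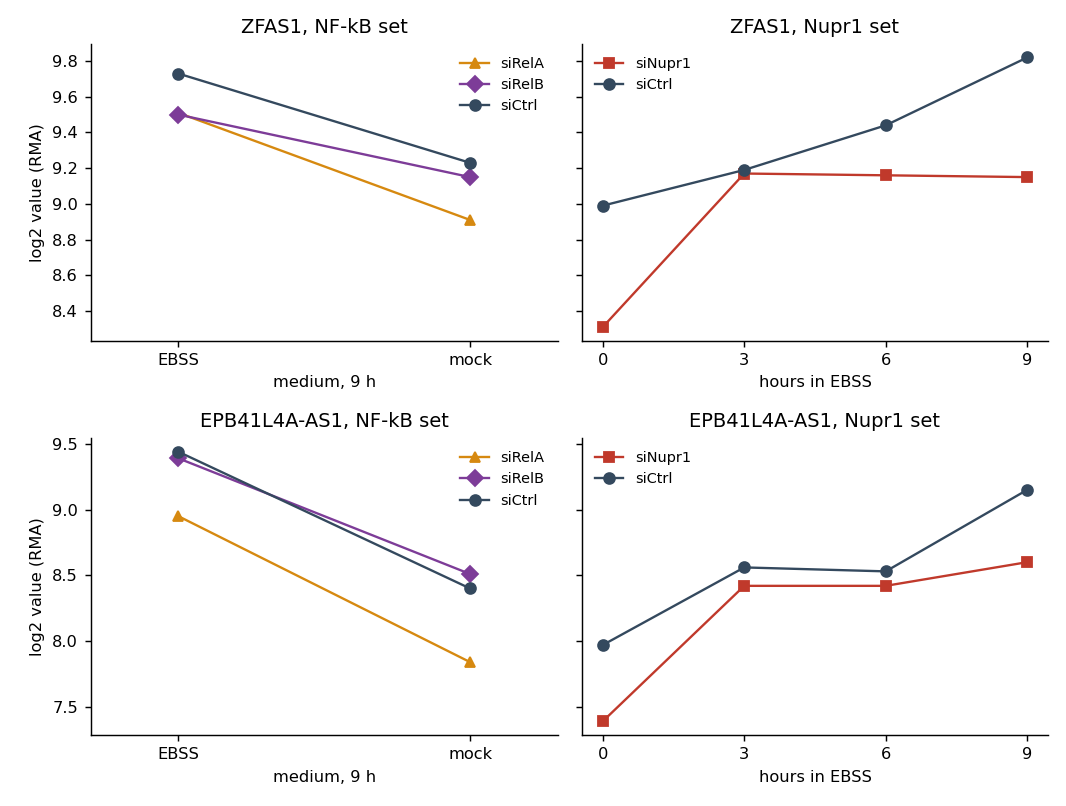
Log2 level (vertical axis) of ZFAS1 in the upper panels and EPB41L4A-AS1 in the lower panels on each of the 14 arrays, by medium in the NF-kB set on the left and by hours in EBSS in the Nupr1 set on the right. Each point is 1 array and lines join arrays of 1 siRNA. In the NF-kB set each line falls from EBSS to mock, and the siNupr1 points at 0 h are the lowest of each gene.

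The Nupr1 set asked how soon after the change to EBSS the RNAs moved. Both were above their 0 h level at 3 h, 6 h and 9 h with either siRNA. At 0, 3, 6 and 9 h EPB41L4A-AS1 was at 7.39, 8.42, 8.42 and 8.60 with siNupr1, and at 7.97, 8.56, 8.53 and 9.15 with siCtrl. With siNupr1 most of the 9 h difference was already there at 3 h, and with siCtrl the levels at 3 h and 6 h were close and the highest value came at 9 h. At the same times ZFAS1 was at 8.31, 9.17, 9.16 and 9.15 with siNupr1 and at 8.99, 9.19, 9.44 and 9.82 with siCtrl. With siNupr1 the ZFAS1 level hardly moved after 3 h, while with siCtrl each later array was higher than the one before. With 1 array a time, these orders have no replicate check.

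At 3 h against 0 h, over both siRNAs, EPB41L4A-AS1 differed by 0.81 ± 0.13 (SE; limma adjusted p = 0.000504) and ZFAS1 by 0.53 ± 0.14 (SE; limma adjusted p = 0.0165). Of all tested genes 12.3% passed this test, 3.27% as higher and 9.07% as lower, so that both hosts were among the few genes called higher. The ZFAS1 call rested on the siNupr1 arrays: without that at 3 h the difference was 0.27 (adjusted p = 0.439, limma), and without that at 0 h it was 0.35 (adjusted p = 0.184, limma). Its pairs differed accordingly, with 0.86 for siNupr1 and 0.20 for siCtrl, against 1.02 and 0.59 for EPB41L4A-AS1.

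At 6 h against 0 h the differences were 0.79 ± 0.13 (SE; limma adjusted p = 0.000243) for EPB41L4A-AS1 and 0.65 ± 0.14 (SE; limma adjusted p = 0.00199) for ZFAS1, in a comparison where 7.65% of genes were higher and 23.4% passed in all. At 9 h against 0 h they were 1.20 ± 0.13 (SE; limma adjusted p = 1.98e-06) and 0.84 ± 0.14 (SE; limma adjusted p = 0.000188) in the same order, with 9.19% of genes higher and 24.3% passing. These were 2.29-fold for EPB41L4A-AS1, placed 55th, and 1.79-fold for ZFAS1, placed 176th from the top. The 2 pairs were close at 9 h: 1.21 with siNupr1 and 1.18 with siCtrl for EPB41L4A-AS1, and 0.84 and 0.83 for ZFAS1. Without the siNupr1 array of doubtful label the differences at 9 h were 1.33 (adjusted p = 4.04e-05, limma) for EPB41L4A-AS1 and 1.01 (adjusted p = 0.000571, limma) for ZFAS1.

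From 3 h to 9 h in EBSS neither gene passed the test. EPB41L4A-AS1 differed by 0.39 ± 0.13 (SE; limma adjusted p = 0.0790) and ZFAS1 by 0.31 ± 0.14 (SE; limma adjusted p = 0.193) between 9 h and 3 h, where 7.34% of genes passed, 4.68% higher and 2.66% lower. The 95% intervals were 0.11 to 0.66 for EPB41L4A-AS1 and 0.02 to 0.60 for ZFAS1, before any adjustment over genes. With the trend on genomic span removed, EPB41L4A-AS1 passed, with 0.46 (adjusted p = 0.0434, limma).

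**Figure D2:**
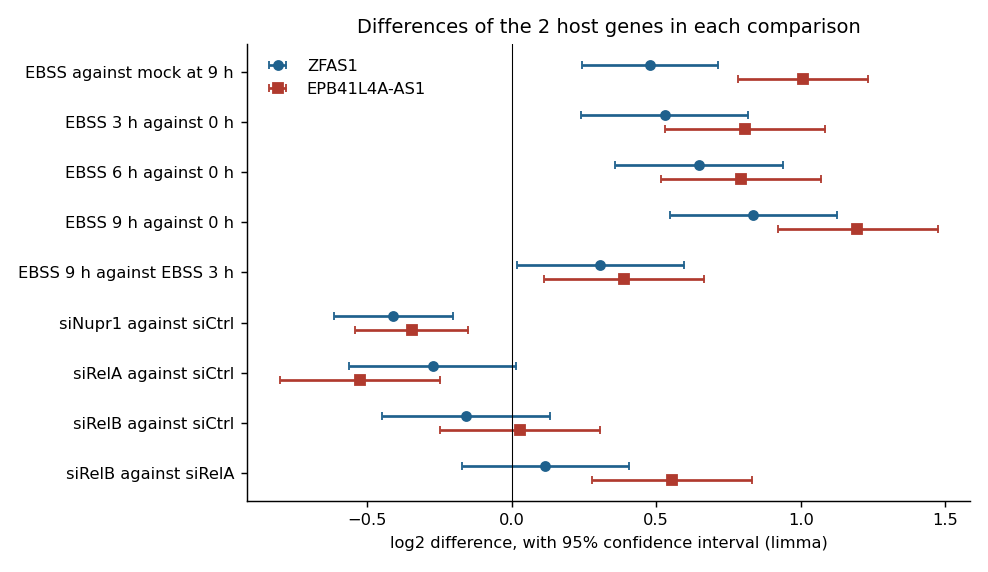
Log2 difference (horizontal axis) of ZFAS1 (circles) and EPB41L4A-AS1 (squares) in 9 comparisons, each from the limma model with its 95% confidence interval as a bar. Both genes lie right of 0 in every starvation comparison, with 0.48 to 1.20 against mock or 0 h, and left of 0 for siNupr1.

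The starvation difference at 9 h was measured in 5 pairs of arrays, 2 of the Nupr1 set (against 0 h) and 3 of the NF-kB set (against mock). EPB41L4A-AS1 changed more than ZFAS1 in 5 of 5 pairs, by 0.46 ± 0.09 (SD, n = 5 pairs) on the log2 scale, with a range of 0.35 to 0.54. The 2 pairs of the Nupr1 set gave the smallest of these values, so the SD holds a difference between the sets and their controls. An exact sign-flip permutation test (two-sided) gave p = 0.0625, the smallest that 5 pairs allow. It treats the 5 pairs as independent, although they fall in 2 sets. Between the sets, the starvation difference of the Nupr1 set exceeded that of the NF-kB set by 0.36 ± 0.18 (SE; limma adjusted p = 0.150) for ZFAS1 and by 0.19 ± 0.17 (SE; limma adjusted p = 0.431) for EPB41L4A-AS1. Neither passed this test, which 24.5% of genes did (16.4% with a higher and 8.11% with a lower value in the Nupr1 set), and the sets differ in their controls (0 h against mock at 9 h). Without the siNupr1 array at 0 h the number of genes passing it was 1743, against 2698 with all arrays. On the siCtrl arrays at 9 h in EBSS, the condition that both sets share, ZFAS1 was at 9.82 in the Nupr1 set and 9.73 in the NF-kB set, and EPB41L4A-AS1 at 9.15 in the Nupr1 set and 9.44 in the NF-kB set.

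**Figure D3:**
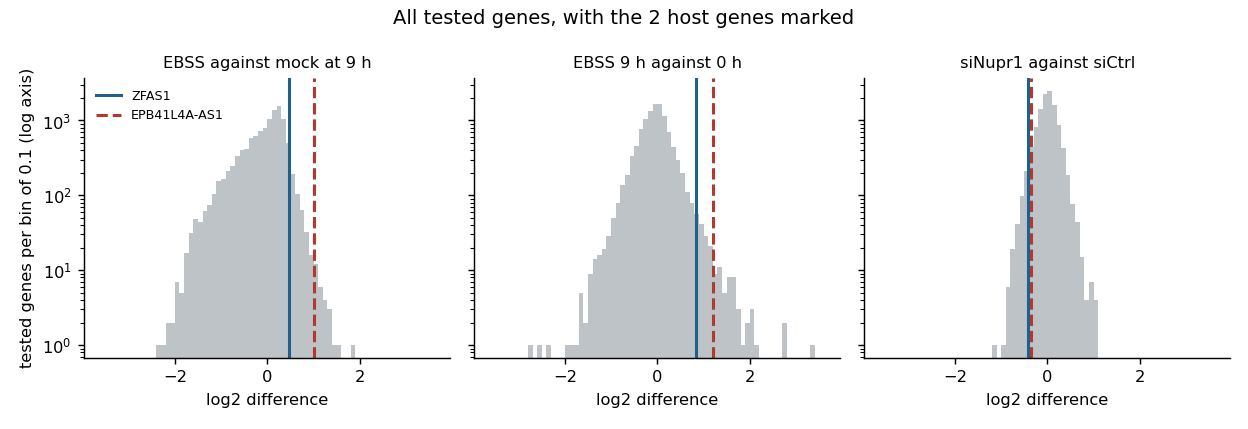
Number of tested genes per bin of 0.1 (vertical log axis) by log2 difference (horizontal axis) for EBSS against mock, 9 h against 0 h and siNupr1 against siCtrl, with ZFAS1 as a solid line and EPB41L4A-AS1 as a dashed line. EPB41L4A-AS1 at 1.01 and 1.20 lies in the upper tail of both starvation comparisons, and both genes lie in the lower tail for siNupr1.

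Knockdown of NUPR1 was set against siCtrl at each of the 4 times, and both host RNAs were lower with siNupr1. ZFAS1 fell by 0.41 ± 0.10 on the log2 scale (SE, 4 pairs; limma adjusted p = 0.00704), 0.75 times its siCtrl level. EPB41L4A-AS1 fell by 0.35 ± 0.09 (SE, 4 pairs; limma adjusted p = 0.0141), 0.79 times its siCtrl level. Of all tested genes 18.4% passed and 8.58% were lower, while 2 of the 3 tested keratins passed as higher with siNupr1; their part in the result was not tested. The pairs at 0, 3, 6 and 9 h gave -0.67, -0.02, -0.28 and -0.67 for ZFAS1 and -0.57, -0.14, -0.12 and -0.55 for EPB41L4A-AS1. All 8 differences were negative, and for both genes those at 0 h and 9 h were the larger. The siNupr1 and siCtrl arrays overlapped over the time course, since the unstarved siCtrl cells were below the starved siNupr1 cells.

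The EPB41L4A-AS1 call depended on the arrays at 0 h and 9 h. It was lost without the siCtrl array or the siNupr1 array at 0 h (adjusted p = 0.0935 and 0.0925, limma) and without either array at 9 h (adjusted p = 0.0546 without siCtrl and 0.0543 without the siNupr1 array of doubtful label, limma). With that siNupr1 array left out ZFAS1 was at -0.32 (adjusted p = 0.0363, limma), and its call held with each of the 14 arrays left out in turn. Fitted against hours, the siNupr1 difference of ZFAS1 had a slope of -0.008 ± 0.028 per hour (SE; limma adjusted p = 0.901). That of EPB41L4A-AS1 had a slope of 0.003 ± 0.026 per hour (SE; limma adjusted p = 0.959). A straight line does not capture a difference that is larger at 0 h and 9 h than between, so these slopes do not show a constant difference. No slope passed this limma test among the 11026 genes (0 genes), although 2149 had an unadjusted p under 0.05 and 841 passed with the Nupr1 set fitted alone.

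Knockdown of RELA was followed by a lower EPB41L4A-AS1 level in both media. EPB41L4A-AS1 differed by -0.53 ± 0.13 between siRelA and siCtrl (SE, 2 pairs; limma adjusted p = 0.00726). The pair in EBSS gave -0.49 and the pair in mock -0.56, in a comparison where 21.5% of genes passed and 11.4% were lower. The call was lost without the siRelA mock array (adjusted p = 0.117, limma), the siCtrl EBSS array (adjusted p = 0.0825, limma) or the siCtrl mock array (adjusted p = 0.0574, limma). ZFAS1 differed by -0.27 ± 0.14 (SE; limma adjusted p = 0.183), and its 95% interval was -0.56 to 0.02. Its pairs were -0.23 for EBSS and -0.32 for mock. Whether the 2 genes differed in this was not tested.

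Knockdown of RELB moved neither gene past the test, which 16.1% of genes passed, 7.58% as higher and 8.55% as lower. Between siRelB and siCtrl, EPB41L4A-AS1 differed by 0.03 ± 0.13 (SE; limma adjusted p = 0.924; 95% interval -0.25 to 0.30) and ZFAS1 by -0.16 ± 0.14 (SE; limma adjusted p = 0.516; 95% interval -0.45 to 0.13). These intervals do not show that siRelB left the genes as they were. Set directly against siRelA, the siRelB arrays had a higher EPB41L4A-AS1 level by 0.55 ± 0.13 (SE; limma adjusted p = 0.0102), where 10.1% of genes passed, 5.46% higher and 4.61% lower. That call was lost without the siRelA mock array (adjusted p = 0.162, limma) or the siRelB mock array (adjusted p = 0.207, limma). In the same comparison 2 of the 3 tested keratins passed as lower, and their part in it was not tested. ZFAS1 differed by 0.12 ± 0.14 (SE; limma adjusted p = 0.702) between siRelB and siRelA.

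The difference that siRelA made in EBSS minus the one it made in mock was 0.09 ± 0.29 (SE; limma adjusted p = 0.999) for ZFAS1 and 0.07 ± 0.28 (SE; limma adjusted p = 0.999) for EPB41L4A-AS1. For siRelB the same quantity was -0.15 ± 0.29 (SE) for ZFAS1 and -0.17 ± 0.28 (SE) for EPB41L4A-AS1, with a limma adjusted p of 0.9996 each. The spread behind these values came from the Nupr1 set. With siRNA-by-medium terms added, the model fits each array of the NF-kB set exactly and leaves no residual there. Of all tested genes 0.0363% passed for siRelA.

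**Figure D4:**
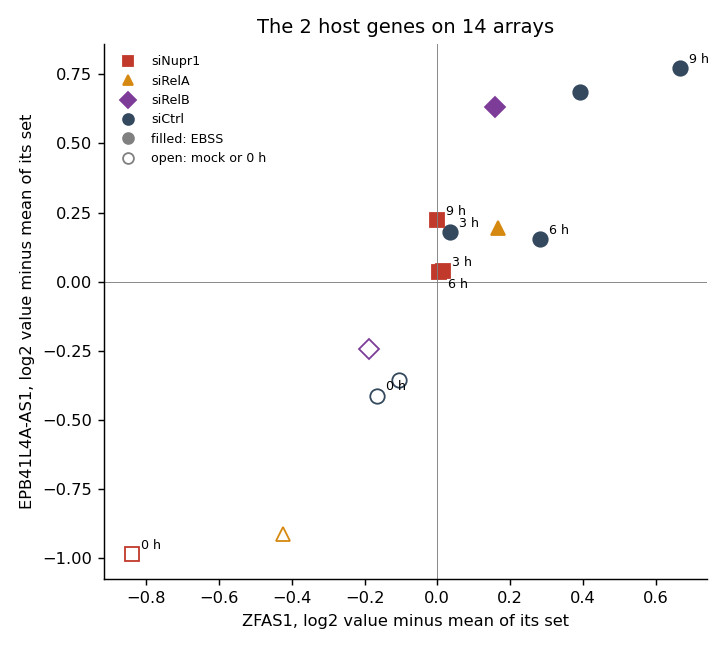
EPB41L4A-AS1 (vertical axis) against ZFAS1 (horizontal axis) on 14 arrays, each as its log2 level minus the mean of its set, with EBSS arrays filled and mock or 0 h arrays open; times are printed beside the Nupr1 set. The open points are all in the lower left and siNupr1 at 0 h is the lowest, while siCtrl at 9 h of the Nupr1 set is the highest.

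Over the 14 arrays the profiles of ZFAS1 and EPB41L4A-AS1, each centred on its mean in the set, differed by a root mean square of 0.24 on the log2 scale. Within the NF-kB set ZFAS1 spanned 0.82 and EPB41L4A-AS1 1.60, and within the Nupr1 set they spanned 1.51 and 1.76. The 8 tested genes whose centred profiles were nearest to the mean of the 2 hosts were, in order, DLGAP1-AS1, RPL22L1, ASNS, LIF-AS2, PIP4P1, DMPK, GABARAPL1 and ZFAND2A. Their root mean square distances to that mean ran from 0.12 to 0.20, against a median of 0.47 over tested genes. Each host lay 0.119 from the mean, but that mean was made from the 2 hosts, so this value follows from the 0.24 between them. It is therefore not a like measure for the distances of the 8 genes, which had no part in the mean. DLGAP1-AS1 and LIF-AS2 are non-coding antisense RNAs, RPL22L1 is a paralog of a ribosomal protein, ASNS makes asparagine and GABARAPL1 is an ATG8 family protein of autophagy. These genes were picked by their profile, so their likeness is a description.

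Genes next to the hosts were read beside them. ZNFX1, the protein-coding neighbour of ZFAS1, encodes a zinc finger helicase and was between 8.05 and 8.98. It differed by -0.005 between EBSS and mock (limma adjusted p = 0.971) and by 0.12 between 9 h and 0 h (limma adjusted p = 0.539). With siRelA it was 0.65 ± 0.12 higher than with siCtrl (SE; limma adjusted p = 0.000672), while ZFAS1 was at -0.27 in that comparison without passing the test. The difference between the neighbours was not itself tested. EPB41L4A, whose span holds EPB41L4A-AS1, was dim on all arrays (2.64 to 3.05) and was not tested. EPB41L4A-DT, a divergent non-coding transcript named for the same gene, differed by 0.39 ± 0.14 between EBSS and mock (SE; limma adjusted p = 0.0231), a call that was lost with the trend on genomic span removed (0.17, adjusted p = 0.336, limma) or without either siRelB array (0.20 each, adjusted p = 0.304 and 0.302, limma). It differed by 0.12 between 9 h and 0 h (limma adjusted p = 0.687).

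Of 15 other non-coding snoRNA hosts, 2 were measured, SNHG29 and SNHG17. SNHG29 was at 10.89, 11.10 and 11.04 in EBSS with siRelA, siRelB and siCtrl, and at 10.40, 10.82 and 10.59 in mock with the same siRNAs. SNHG29 differed by 0.41 ± 0.08 between EBSS and mock (SE; limma adjusted p = 0.000290), where 22.6% of all tested genes passed as higher. At 9 h against 0 h it differed by 0.36 ± 0.10 (SE; limma adjusted p = 0.0112), a call lost without the siCtrl array at 0 h (adjusted p = 0.124, limma) or at 9 h (adjusted p = 0.203, limma). SNHG17 differed by 0.14 between EBSS and mock (limma adjusted p = 0.212) and by 0.51 ± 0.12 between 9 h and 0 h (SE; limma adjusted p = 0.00345). With its clusters averaged, the difference between 9 h and 0 h was 0.04 (adjusted p = 0.850, limma). With siNupr1 neither passed the test, at -0.06 for SNHG29 (limma adjusted p = 0.599) and -0.15 for SNHG17 (limma adjusted p = 0.241).

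Hosts that code for proteins were more often lower than higher in EBSS against mock, but not at 9 h against 0 h. Of 26 tested protein-coding snoRNA hosts, 3 were higher and 14 lower in EBSS than in mock, where 22.6% of all tested genes were higher and 29.3% lower. The median of the list was -0.285, against 0.05 for all tested genes. Among those that fell were the translation initiation factor EIF3A (-1.18 ± 0.09, SE; limma adjusted p = 7.10e-09), the nuclear import receptor IPO7 (-0.93 ± 0.09), the chromatin remodeller CHD8 (-0.85 ± 0.10) and the nucleolar protein NCL (-0.68 ± 0.07). In the comparison of 9 h with 0 h, where 9.19% of genes were higher and 15.1% lower, 4 rose and 4 fell, with a median of -0.002 against -0.04 for all tested genes. CHD8 was again among those that fell (-0.60 ± 0.13), while the ubiquitin ligase RNF149 (0.57 ± 0.13), the ribosome assembly factor WDR43 (0.52 ± 0.11) and the mitochondrial chaperone HSPA9 (0.52 ± 0.08) rose. With siNupr1, where 9.86% of genes were higher and 8.58% lower, 1 rose and 5 fell, among them EIF3A (-0.38 ± 0.08).

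Proteins that build or guide the snoRNA particles were also more often lower than higher in EBSS: of 16 tested, 1 rose and 8 fell against mock, beside 22.6% and 29.3% of all tested genes. The median of the list was -0.21. NOP58, a core protein of C/D particles, fell by 1.43 ± 0.11 (SE; limma adjusted p = 4.22e-09). The assembly factors ZNHIT6 (-0.79 ± 0.12) and NAF1 (-0.54 ± 0.12) and the nucleolar chaperone NOLC1 (-0.50 ± 0.09) fell as well. In the Nupr1 set, 9 h against 0 h, none rose and 3 fell (9.19% and 15.1% of all genes), namely SHQ1 (-0.75 ± 0.14), RUVBL1 (-0.51 ± 0.10) and NOP58 (-0.38 ± 0.13), with a median of -0.19. With siNupr1, 5 were higher and 1 lower (9.86% and 8.58% of all genes), and those higher included NOLC1 (0.56 ± 0.07) and RUVBL2 (0.46 ± 0.08).

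**Figure D5:**
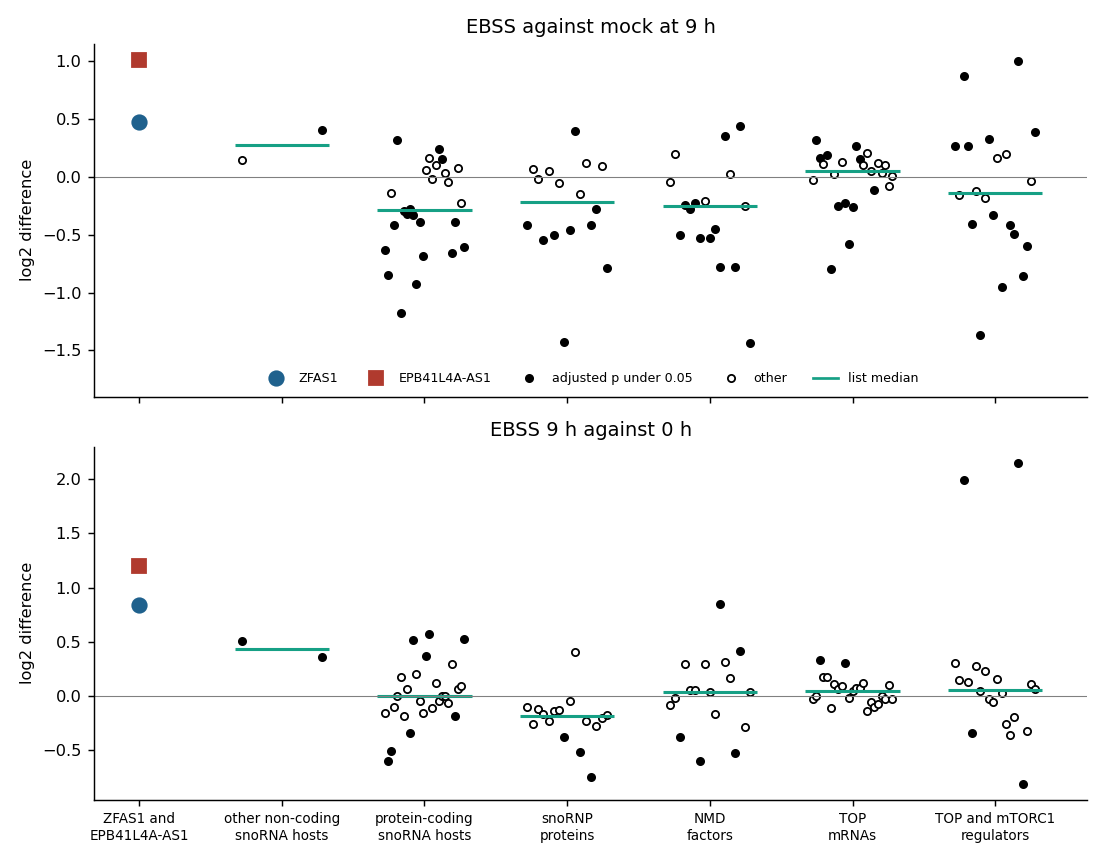
Log2 difference (vertical axis) of the 2 host genes and of each tested gene of 6 lists, for EBSS against mock at 9 h above and 9 h against 0 h below. Filled points passed the test, open points did not, and bars are list medians. Both hosts lie above most of the genes plotted; EIF3A, NOP58, UPF2 and LARP4 are the lowest of their lists against mock.

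Nonsense-mediated decay factors were counted because they act on host RNAs. Of 17 tested, 2 were higher and 10 lower in EBSS than in mock, beside 22.6% and 29.3% of all tested genes, and the median was -0.25. UPF2, a core factor, fell by 1.44 ± 0.11 (SE; limma adjusted p = 4.22e-09), and the kinase SMG1 (-0.78 ± 0.09), its regulator SMG8 (-0.78 ± 0.11) and the decapping cofactor PNRC2 (-0.53 ± 0.11) also fell. After 9 h in the Nupr1 set, against 0 h, 2 rose and 3 fell, beside 9.19% and 15.1% of all genes, and the median was 0.04. SMG1 was then higher (0.84 ± 0.11, SE; limma adjusted p = 1.72e-05), the opposite direction from EBSS against mock, while SMG8 (-0.53 ± 0.13) was lower in both. The other examples were MAGOHB (-0.60 ± 0.13) and SMG9 (0.42 ± 0.15). With siNupr1, 2 fell, PNRC2 (-0.39 ± 0.10) and SMG1 (-0.37 ± 0.08), and none rose, beside 8.58% of all genes lower and 9.86% higher.

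TOP mRNAs, which share the start type of ZFAS1 at the start used here, went both ways. Of 23 tested, 5 were higher and 6 lower in EBSS than in mock, near the shares of all tested genes (22.6% higher and 29.3% lower), and their median of 0.05 was that of all genes. The initiation factor EIF3E (-0.79 ± 0.10) and the histone chaperone NAP1L1 (-0.58 ± 0.07) fell, and the elongation factor EEF1B2 (0.32 ± 0.10), itself a snoRNA host, and the ribosomal protein RPL10A (0.26 ± 0.09) rose. Against 0 h, at 9 h, EEF1D (0.33 ± 0.08) and EIF4B (0.30 ± 0.09) rose and none fell, beside 9.19% of all genes higher and 15.1% lower. With the clusters of a gene averaged, or without the siCtrl array at 0 h, 0 of the TOP mRNAs passed as higher there, and over all alternatives 0 to 4 did. With siNupr1, where 18.4% of all genes passed, 1 of them changed, NAP1L1 (-0.27 ± 0.06).

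Regulators of TOP mRNAs and mTORC1 went both ways, with 6 of 20 higher and 8 lower in EBSS than in mock, beside 22.6% and 29.3% of all tested genes, and a median of -0.14. SESN2, a leucine sensor that restrains mTORC1, rose by 1.001 ± 0.181 (SE; limma adjusted p = 0.000131) and DDIT4, another inhibitor of it, by 0.87 ± 0.15 (SE; limma adjusted p = 7.27e-05). The RNA-binding protein LARP4 (-1.37 ± 0.11) and the S6 kinase RPS6KB1 (-0.95 ± 0.10) fell. Over 9 h of the Nupr1 set, 2 rose and 2 fell, beside 9.19% and 15.1% of all genes. SESN2 (2.15 ± 0.22) and DDIT4 (2.00 ± 0.18) rose, and TIA1 (-0.81 ± 0.13) and EIF4EBP2 (-0.34 ± 0.10) fell. The part of these genes in the levels of ZFAS1 and EPB41L4A-AS1 was not tested.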

How the data were processed

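Total RNA of MiaPaCa2 cells was measured on 14 arrays, and the authors deposited them on the log2 scale; the submitters' processing notes name RMA, the robust multi-array average, and limma; no version is given in the sources used here. The table held 28869 transcript clusters with 0 missing values. The annotation gave 1 symbol for 19310 clusters and several for 1752, and 7807 were not listed. Symbols were updated by Entrez identifier (19279 matched), and the brightest cluster was kept for each of 18377 genes. The 40% of genes with the lowest mean (under 5.805) were left out. Array medians were 5.67 to 5.84, and array number limits the precision. No genome build is named for the clusters.

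A model of set, siRNA and condition (9 columns, 5 residual degrees of freedom, 19.6 with moderation) was fitted with limma 3.58.1 (lmFit, eBayes with trend) in R 4.3.3. Each combination is 1 array, so the residual spread stands in for replicates. This spread is the departure of the arrays from a sum of siRNA and condition terms within each set. It may be technical, and it also holds any real change of an siRNA difference between conditions. The p-values rest on it and do not measure a spread between replicates. P-values were adjusted by Benjamini and Hochberg's method over 11026 genes, with a threshold of 0.05. Slope and interaction terms were added in turn. Named genes were the host genes, the targeted genes, their neighbours, up to 4 genes of each list with the largest passing difference and the 8 nearest profiles; with siNupr1, list genes were named after their values were seen. The genes and lists were chosen with earlier results of these data known, and SNHG29 was added to its list after the annotation was read. Alternatives were no filter, quantile normalization, array weights, no trend, averaged clusters, removal of a trend on genomic span, each set alone, and each array left out. Sequences are RefSeq's, GRCh38.p14.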

Additional observations from a re-analysis of the deposited data

How the results depend on the processing

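Calls of both host genes in EBSS against mock and at 6 h and 9 h against 0 h held in all 21 alternatives. ZFAS1 ranged from 0.38 to 0.54 against mock (adjusted p up to 0.0245, limma) and from 0.66 to 1.01 at 9 h, and EPB41L4A-AS1 from 0.80 to 1.08 and from 1.04 to 1.35. Leaving out single arrays gave 1 to 2 genes called at 3 h and for siNupr1, and 0 to 1 for siRelA and for siRelB against siRelA; with the trend on genomic span removed, 1 of the 2 was called at 9 h against 3 h, where 0 were otherwise. Small values changed sign. ZNFX1 in EBSS against mock was 0.069 with quantile normalization, 0.0061 with array weights, 0.056 with the span trend removed and -0.057 to 0.036 with single arrays left out. The ZFAS1 slope on hours was 0.0046, 0.00088 and 0.0020 under these 3 settings and -0.108 to 0.066 with arrays left out, and the EPB41L4A-AS1 slope was -0.068 to 0.076. SNHG17 in EBSS against mock was -0.015 with averaged clusters. With single arrays left out, EPB41L4A-AS1 with siRelB ranged from -0.073 to 0.129, SNHG29 with siNupr1 from -0.093 to 0.016 and EPB41L4A-DT at 9 h from -0.187 to 0.42. The cause of these changes was not tested. With the span trend removed, TOP mRNAs in EBSS against mock were 1 higher and 6 lower, decay factors 4 higher and 8 lower, protein-coding hosts 1 higher and 15 lower, and snoRNA particle proteins 0 higher and 7 lower; with quantile normalization, 2 TOP mRNAs were higher there. At 9 h against 0 h, decay factors higher and mTORC1 regulators higher were 4 each with quantile normalization and with the span trend removed, and particle proteins lower were 5 with averaged clusters and 2 with the span trend removed. Over all genes, array weights moved the number called to 2173 at 3 h (1361 otherwise), 1517 at 9 h (2675), 414 at 9 h against 3 h (809), 3271 for siNupr1 (2033) and, for siRelA and siRelB by medium, 39 (4) and 6 (0). For the slope it was 841 with the Nupr1 set fitted alone, against 0 with both sets, and the cause was not tested. For siRelA by medium it was 2 with the span trend removed and 0 without the intensity trend. With single arrays left out it was 356 to 1710 at 3 h, 823 to 2990 at 6 h, 1639 to 2703 at 9 h, 117 to 1012 at 9 h against 3 h, 840 to 2403 for siNupr1, 1120 to 2720 for siRelA, 761 to 2151 for siRelB, 313 to 1442 for siRelB against siRelA, 1743 to 2994 for the difference between sets, 0 to 66 for the slope and 4 to 25 for siRelA by medium. The share of called genes that was higher was 42.7% with quantile normalization and 37.4% with the span trend removed at 3 h (26.5% otherwise), 44.4% with quantile normalization at 6 h (32.7%) and 52.5% at 9 h against 3 h (63.8%). Each set alone could not be fitted for the difference between sets or for the siRelA and siRelB differences by medium. Those differences by medium need every siCtrl array of the NF-kB set and both arrays of their own siRNA, which were therefore not left out there. No paired analysis was possible because the groups share fewer than 2 replicate numbers, so a replicate block could not be fitted; media, times and siRNAs were compared within pairs of arrays by the model's own terms.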
